A study of Mus musculus with 3 samples.

Results

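Blood leukocytes that carried transcripts of the cell division programme were counted across every lineage in 3 droplet libraries of mouse blood. A cell was called cycling when the raw unique molecular identifier (UMI) counts of Mki67, Top2a, Birc5, Cdk1 and Pclaf summed to at least 3 and at least 2 of these 5 genes were detected. By this rule 704 of 29754 cells were cycling, or 2.37% (95% exact binomial interval 2.20% to 2.55%). They comprised 280 of 12023 cells of the HDCA+CLP library, 404 of 10840 cells of the CLP library and 20 of 6891 cells of the Sham library. Each cycling cell was placed in a lineage by counts of other genes. The neutrophil class needed S100a8 and S100a9 to make up at least 5% of the cell's UMIs. The B class needed at least 3 UMIs of Cd79a, Cd79b and Ms4a1, the T class at least 2 of Cd3d, Cd3e, Cd3g and Trac, the NK class at least 2 of Ncr1, Klrb1c and Klra8, and the monocyte class at least 3 of Csf1r, Ms4a6c and F13a1. A cell that met more than 1 of these rules was kept apart as a mixed cell.

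The mice were C57BL/6J, and blood was taken for 10x Chromium 3′ v3 libraries at 12 h. The HDCA+CLP animals had HDCA with CLP, the CLP animals had CMC with CLP, and the Sham animals had the sham procedure, for which no agent is named. The labels leave these abbreviations unexpanded. HDCA is read here as the bile acid hyodeoxycholic acid, CMC as carboxymethylcellulose, a common dosing vehicle, and CLP as caecal ligation and puncture, in which gut bacteria leak from a pierced caecum and cause sepsis. Each group was 1 library, and no source used here gives the number of animals behind it. The design therefore has no replicate, no difference was tested, and every interval below covers counting error alone. The labels call the material mononuclear cells, yet the neutrophil class held 74.0% of the HDCA+CLP cells, 45.7% of the CLP cells and 3.25% of the Sham cells.

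Most blood leukocytes are non-dividing. Neutrophils and monocytes normally divide in the bone marrow before release, whereas T and NK cells can divide after activation in lymphoid organs and pass through blood while still in cycle. Before DNA replication, the MCM helicase subunits are loaded at replication origins, and nucleotide synthesis enzymes and replication fork proteins are made, largely under E2F transcription factors. Cyclin B, the spindle kinesins, the kinetochore proteins and the mitotic kinases follow in G2 and mitosis, and many of their promoters are known to carry a cell cycle homology region (CHR) and CCAAT boxes that are read by the DREAM, MYB-MuvB and NF-Y complexes. Of the genes that define the cells here, Mki67 encodes the coat protein of mitotic chromosomes, Top2a a DNA topoisomerase, Birc5 the chromosomal passenger survivin, Cdk1 the mitotic kinase and Pclaf a partner of the replication clamp.

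The promoters of 6 cell cycle genes are printed from the RefSeq table of build GRCm38.p6. Birc5 and Pclaf are genes of the cycling rule, and Ccnb2 and Cdkn3 were not lower in cycling neutrophils than in cycling monocytes. Birc5, Ccnb2 and Cdkn3 hold CHR letters and no E2F letters, Mcm3 holds E2F letters and no CHR letters, and Mcm5 and Pclaf hold both. Each window runs 5′ to 3′ on the gene's own strand, from 250 bases before to 50 bases after the start of transcription, and capitals mark matches to the letters searched on both strands. The CHR was searched as TTTGAA with its reverse complement TTCAAA and as the palindrome TTTAAA, the CCAAT box also in its reverse form ATTGG, and E2F sites as TTTGGCGC, TTTCCCGC, TTTGCCGC and TTTCGCGC with their reverse complements GCGCCAAA, GCGGGAAA, GCGGCAAA and GCGCGAAA. The submitters' processing notes name mm39, so these positions belong to RefSeq's table and not to the matrices. Birc5 lies at chr11:117848987-117849286 on the plus strand, Ccnb2 (cyclin B2) at chr9:70421505-70421804 on the minus strand and Cdkn3 (a phosphatase of CDKs) at chr14:46760291-46760590 on the plus strand. Pclaf lies at chr9:65890073-65890372 on the plus strand, Mcm3 at chr1:20820263-20820562 on the minus strand and Mcm5 (a second helicase subunit) at chr8:75109259-75109558 on the plus strand.
Birc5: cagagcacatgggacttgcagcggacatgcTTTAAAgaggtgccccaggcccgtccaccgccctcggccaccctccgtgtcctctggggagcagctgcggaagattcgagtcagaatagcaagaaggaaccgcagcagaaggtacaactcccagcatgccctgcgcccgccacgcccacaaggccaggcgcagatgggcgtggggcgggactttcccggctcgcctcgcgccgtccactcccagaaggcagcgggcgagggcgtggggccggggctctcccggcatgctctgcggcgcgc
Ccnb2: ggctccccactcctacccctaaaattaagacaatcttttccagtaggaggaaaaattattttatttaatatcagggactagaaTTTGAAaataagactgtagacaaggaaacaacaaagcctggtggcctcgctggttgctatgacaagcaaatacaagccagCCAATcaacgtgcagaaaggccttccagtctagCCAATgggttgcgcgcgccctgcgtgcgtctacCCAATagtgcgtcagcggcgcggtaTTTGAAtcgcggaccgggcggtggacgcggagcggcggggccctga
Cdkn3: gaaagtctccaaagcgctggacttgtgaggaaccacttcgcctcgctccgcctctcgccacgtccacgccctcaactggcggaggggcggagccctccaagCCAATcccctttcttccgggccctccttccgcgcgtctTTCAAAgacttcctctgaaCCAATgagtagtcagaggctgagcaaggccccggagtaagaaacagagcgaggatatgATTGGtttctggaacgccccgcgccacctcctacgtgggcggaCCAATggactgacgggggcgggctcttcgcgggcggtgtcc
Pclaf: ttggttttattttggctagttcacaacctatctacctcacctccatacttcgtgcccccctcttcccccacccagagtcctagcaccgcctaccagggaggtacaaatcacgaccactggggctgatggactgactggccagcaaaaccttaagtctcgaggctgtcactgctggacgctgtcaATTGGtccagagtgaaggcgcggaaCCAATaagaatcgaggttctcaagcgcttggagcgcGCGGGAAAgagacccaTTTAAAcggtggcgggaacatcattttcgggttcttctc
Mcm3: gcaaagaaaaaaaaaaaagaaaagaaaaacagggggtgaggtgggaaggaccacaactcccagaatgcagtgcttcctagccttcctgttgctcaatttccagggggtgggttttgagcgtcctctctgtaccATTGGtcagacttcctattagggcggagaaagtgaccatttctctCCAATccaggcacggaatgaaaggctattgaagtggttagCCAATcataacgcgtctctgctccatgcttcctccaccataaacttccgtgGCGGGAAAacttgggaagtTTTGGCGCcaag
Mcm5: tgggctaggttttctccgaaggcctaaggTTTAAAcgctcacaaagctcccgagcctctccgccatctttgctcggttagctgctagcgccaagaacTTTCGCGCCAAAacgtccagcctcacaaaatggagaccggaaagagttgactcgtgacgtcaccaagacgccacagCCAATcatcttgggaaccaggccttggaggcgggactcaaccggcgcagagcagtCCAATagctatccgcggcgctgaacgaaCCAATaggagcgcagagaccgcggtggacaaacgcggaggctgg

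Birc5 held 1 CHR match and no CCAAT box, and Pclaf 1 CHR match, 2 CCAAT boxes and 1 E2F match. Ccnb2 held 2 CHR matches and 3 CCAAT boxes, and Cdkn3 held 1 CHR match and 4 CCAAT boxes, with no E2F match in either. Mcm3 held 2 E2F matches, 3 CCAAT boxes and no CHR match, while Mcm5 held 2 overlapping E2F matches, 3 CCAAT boxes and 1 CHR match. Among 68 promoters matched from a list of 79 G2/M genes, 44 (64.7%) held a CHR match and 7 (10.3%) an E2F match. Among 46 promoters matched from a list of 56 S phase genes, 10 (21.7%) held a CHR match and 13 (28.3%) an E2F match. The shares over 32851 mouse promoters of the same length were 27.6% for the CHR, 2.26% for E2F and 37.4% for the CCAAT box, which was found in 67.6% of the G2/M and 67.4% of the S phase promoters. A CHR match together with a CCAAT box was found in 51.5% of G2/M promoters, 15.2% of S phase promoters and 10.7% of all promoters. A match is a description of letters in the window, not a bound site or a cause.

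Cell barcodes numbered 12205, 11387 and 7159 in the HDCA+CLP, CLP and Sham libraries, with 95178381, 87031721 and 42427093 UMIs in all. Median depth over the filtered cells was 7469 UMIs in HDCA+CLP, 6931 in CLP and 5350 in Sham. Between 16 and 32 barcode sequences were shared by each pair of libraries, and none of them was cycling in both.

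Cycling cells made up 2.33% of the HDCA+CLP library, 3.73% of the CLP library and 0.290% of the Sham library. The CLP share was 12.8-fold the Sham share (log2 ratio 3.68, counting interval 3.04 to 4.41). The HDCA+CLP share was lower than the CLP share by 0.68 on the log2 scale (log2 ratio -0.68, interval -0.90 to -0.45). Both intervals lie away from 0, but with 1 library per group the spread between animals is unknown.

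The lineages did not share one pattern. Among neutrophil-class cells, 83 of 8899 were cycling in HDCA+CLP (0.933%), 24 of 4950 in CLP (0.485%) and 0 of 224 in Sham, which allows a share of up to 1.34% when the limit is set at 3 counts of the total, and up to 1.63% by the exact interval. Among monocyte-class cells, 67 of 283 were cycling in HDCA+CLP (23.7%), 170 of 723 in CLP (23.5%) and 1 of 287 in Sham (0.348%). The cycling share of monocytes was thus nearly equal in HDCA+CLP and CLP, against a single cell in Sham. Among T-class cells, 49 of 1345 were cycling in HDCA+CLP (3.64%), 67 of 2827 in CLP (2.37%) and 15 of 3026 in Sham (0.496%). Among NK-class cells, 28 of 496 were cycling in HDCA+CLP (5.65%), 75 of 981 in CLP (7.65%) and 1 of 262 in Sham (0.382%). Few B-class cells were cycling, with 2 of 275 in HDCA+CLP (0.727%), 4 of 273 in CLP (1.47%) and 1 of 2696 in Sham (0.0371%). Cells that met none of the lineage rules added 1 of 183, 6 of 338 and 0 of 87 cells in HDCA+CLP, CLP and Sham.

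Within a lineage, the HDCA+CLP share over the CLP share gave a log2 ratio of 0.94 for neutrophils (interval 0.27 to 1.66) and 0.62 for T cells (0.06 to 1.17). The ratio was 0.01 for monocytes (-0.42 to 0.43) and -0.44 for NK cells (-1.12 to 0.21), and both of these intervals include 0. The neutrophil ratio was 0.22 (-0.93 to 1.47) with at least 5 marker UMIs from 3 genes and 0.36 (-0.10 to 0.83) when mixed cells joined the neutrophils, so its interval did not stay above 0. The T cell ratio was 0.38 (-0.23 to 0.99) with at most 5% mitochondrial UMIs and 0.39 (-0.15 to 0.92) with at least 2 marker UMIs from 2 genes, and its interval did not stay above 0 either. For T cells the CLP share was 4.78-fold the Sham share (log2 ratio 2.26, interval 1.43 to 3.17). The T-class share of the library moved the other way, at 11.2% in HDCA+CLP, 26.1% in CLP and 43.9% in Sham. As a share of all cells of the library, cycling neutrophils had a log2 ratio of HDCA+CLP over CLP of 1.64 (0.97 to 2.36), cycling monocytes -1.49 (-1.92 to -1.08), cycling NK cells -1.57 (-2.25 to -0.93) and cycling T cells -0.60 (-1.16 to -0.05). Monocyte-class cells were 2.35% of the HDCA+CLP library and 6.67% of the CLP library, which stands beside the lower number of cycling monocytes in HDCA+CLP.

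The makeup of the cycling cells differed accordingly. Neutrophils were 29.6% of the cycling cells in HDCA+CLP and 5.94% in CLP, while monocytes were 23.9% and 42.1%. T cells were 17.5% in HDCA+CLP, 16.6% in CLP and 15 of 20 cells (75%) in Sham. NK cells were 10% in HDCA+CLP and 18.6% in CLP. The cycling cells of Sham were thus mainly T cells, and cycling neutrophils and monocytes were found in the libraries with CLP apart from 1 Sham monocyte.

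**Figure D1:**
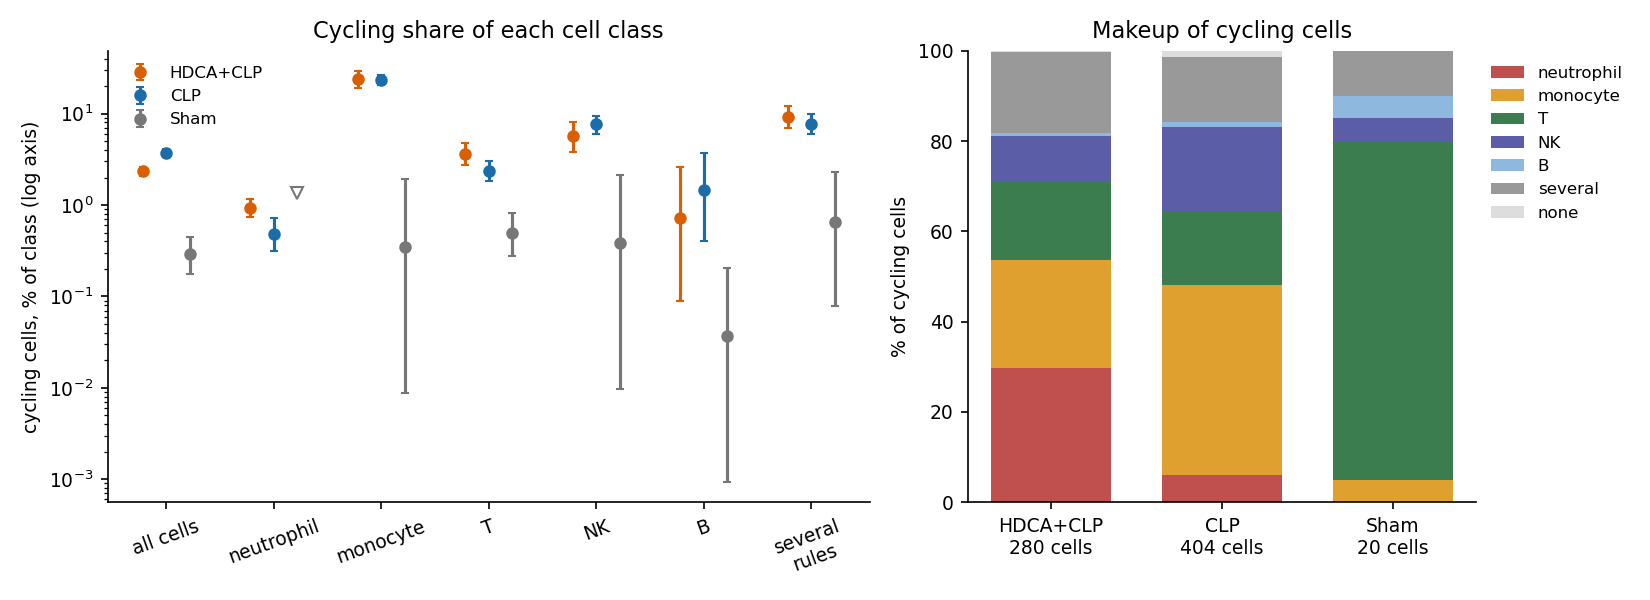
Share of each lineage class that was cycling (left, percent, log axis, with exact 95% binomial intervals) and lineage makeup of the cycling cells (right, percent of cycling cells) in the HDCA+CLP, CLP and Sham libraries. The open triangle is the limit of 1.34%, or 3 counts of the total, for 0 of 224 Sham neutrophils; monocytes stand near 23.7% and 23.5% in HDCA+CLP and CLP, and neutrophils take 29.6% of the cycling cells in HDCA+CLP against 5.94% in CLP.

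The share that meets a fixed UMI rule moves with depth, so depth is given beside it. Cycling neutrophils had a median of 8599 UMIs in HDCA+CLP and 11300 in CLP, against 8010.5 and 8558.5 in non-cycling neutrophils. Cycling T cells had 13230, 13398 and 12629 UMIs in HDCA+CLP, CLP and Sham, against 3985, 4612.5 and 6667 in non-cycling T cells. Cycling monocytes had 18090 and 20082 in HDCA+CLP and CLP, against 11598 and 13003 in non-cycling monocytes. When every cell was thinned to 2000 UMIs, 0.743% of HDCA+CLP, 1.42% of CLP and 0.149% of Sham cells met the rule. At that depth the cycling share of monocytes was 7.86% in HDCA+CLP and 5.94% in CLP, that of T cells 1.85%, 1.23% and 0.233% in HDCA+CLP, CLP and Sham, and that of NK cells 4.12% in HDCA+CLP and 4.87% in CLP. Neutrophils then held 8 cycling cells in HDCA+CLP and 1 in CLP, too few to compare. Thinned to 5000 UMIs, a depth chosen after the data were seen, neutrophils stood at 0.513% in HDCA+CLP and 0.253% in CLP. T cells stood at 11.9%, 3.43% and 0.372% in HDCA+CLP, CLP and Sham at that depth, with 1016 of 1345 HDCA+CLP and 1630 of 2827 CLP T cells left out as too shallow.

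Free RNA can place a marker UMI in a cell that does not express it. The background was read in resting follicular B cells, which carry UMIs of CD23 and IgD transcripts and should not divide. Thinned to 2000 UMIs, 14 of 1565 such cells of the Sham library (0.895%; median depth before thinning 4307 UMIs) held any UMI of the 5 marker genes. The HDCA+CLP and CLP libraries held 7 such cells each, 0 of them with a marker UMI, which is too few to set a background there. By comparison, any marker UMI was found in 2.29% of HDCA+CLP and 1.46% of CLP neutrophils, 22.5% and 19.9% of monocytes, 6.09% and 4.90% of T cells, and 11.8% and 13.2% of NK cells at the same depth. None of these B cells met the cycling rule.

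The rule's own genes are given as a description. Mki67 was detected in 87.5% of the cycling cells of HDCA+CLP and 88.6% of those of CLP, and Birc5 in 91.4% and 88.9%. Top2a was detected in 42.1% and 53.7%, and Cdk1 in 34.3% and 44.6%. Cycling neutrophils carried them unevenly, with Mki67 in 72 of 83 HDCA+CLP and 21 of 24 CLP cells and Birc5 in 71 and 22 cells, but Top2a in 13 and 5 cells and Cdk1 in 10 and 2. The median cycling cell held 9 marker UMIs in HDCA+CLP, 13 in CLP and 9 in Sham. Just inside the rule, 51, 43 and 5 cells had exactly 3 marker UMIs in HDCA+CLP, CLP and Sham. Just outside it, 46, 69 and 10 cells had 2 UMIs from 2 of the genes, and 37, 20 and 14 cells had at least 3 UMIs of a single gene. At least 5 UMIs from 3 genes were found in 167, 292 and 13 cells.

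Mixed cells, which met several lineage rules, were 17.9% of cycling and 4.19% of non-cycling cells in HDCA+CLP, 14.4% and 6.61% in CLP, and 10% and 4.47% in Sham. A doublet score built from simulated pairs of cells, applied to each library, called 28 of 50 such cycling cells in HDCA+CLP, 33 of 58 in CLP and 1 of 2 in Sham. Among cycling cells of a single lineage it called 5 of 83 HDCA+CLP and 4 of 24 CLP neutrophils, 0 of 67 and 1 of 170 monocytes, 0 of 49 and 1 of 67 T cells, and no NK cell. The commonest mixture was neutrophil with monocyte, with 28 cycling cells in HDCA+CLP, 9 of them called doublets, and 21 in CLP, 8 of them called. These cells carried the primary granule protease Prtn3 at 341 CPM in HDCA+CLP and 673 CPM in CLP, against 77.7 and 45.8 CPM in non-cycling cells of the same mixture, where CPM is a gene's UMIs over all UMIs of the summed cells, scaled to 1000000. Their Mcm3 stood at 73.2 and 51.0 CPM. All 9 HDCA+CLP and all 7 CLP cycling cells with neutrophil and T markers were called doublets. Mixed cells are left out of the lineage descriptions that follow.

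Lineage marker lists were checked in the cycling cells. The B, T, NK and neutrophil lists include the genes of their own lineage rules. Cells that met a second rule were set apart as mixed, so low counts of those genes in another class partly follow from that choice. Of 6 B cell markers, none was detected in the cycling neutrophils of either library. Of 9 T cell markers, 8 were at 0 in the cycling neutrophils of each library. Of 7 NK cell markers, 5 were detected in the cycling neutrophils of HDCA+CLP, at a summed 280 CPM against 20.2 CPM in non-cycling neutrophils, and 2 in those of CLP, at 17.5 against 42.2 CPM; Gzma, described below, held 177 of the 219 UMIs in HDCA+CLP. Of 6 basophil and mast cell markers, all were at 0 in cycling T and NK cells of both libraries. Of 11 erythroid markers, 8 were at 0 in the cycling monocytes of HDCA+CLP and 6 in those of CLP, with summed levels of 5.35 and 2.97 CPM. Cycling T cells carried the 8 neutrophil markers at a summed 1864 CPM in HDCA+CLP and 1370 CPM in CLP, against 5161 and 3367 CPM in non-cycling T cells, so neutrophil transcripts were present in both. Their part in the T cell results was not tested.

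The cycling lineages differed in how far their transcripts leaned to S phase or to G2 and mitosis. Cycling neutrophils carried the S phase list at a summed 252 CPM in HDCA+CLP and 322 CPM in CLP, and the G2/M list at 1960 and 2173 CPM. Their non-cycling counterparts stood at 185 and 192 CPM for S phase and 476 and 469 CPM for G2/M. Cycling neutrophils thus exceeded non-cycling ones mainly in G2/M transcripts. Cycling monocytes carried the S phase list at 2500 CPM in HDCA+CLP and 2002 CPM in CLP and the G2/M list at 5290 and 5136 CPM, against 529 and 515 CPM and 896 and 801 CPM in non-cycling monocytes. Cycling T cells carried S phase transcripts at 5540, 4497 and 2701 CPM in HDCA+CLP, CLP and Sham, and G2/M transcripts at 5767, 6926 and 8481 CPM. Cycling NK cells carried S phase transcripts at 3286 and 3337 CPM in HDCA+CLP and CLP and G2/M transcripts at 11264 and 9176 CPM.

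As a share of both lists together, G2/M UMIs made up 88.6% in the cycling neutrophils of HDCA+CLP (exact interval 87.0% to 90.1%) and 87.1% in those of CLP (84.4% to 89.5%). The share was 67.9% and 71.9% in cycling monocytes, 77.4% and 73.3% in cycling NK cells, and 51.0% and 60.6% in cycling T cells, where Sham stood at 75.8%. Non-cycling neutrophils already stood at 72.0% and 71.0%, and the non-cycling cells of the other lineages in these 2 libraries between 48.3% and 62.9%. Every cycling neutrophil with at least 5 UMIs of the lists had at least as many G2/M as S phase UMIs, which was 81 of 81 cells in HDCA+CLP and 23 of 23 in CLP. In T cells that held for 30 of 49 cells in HDCA+CLP, 43 of 67 in CLP and 12 of 15 in Sham, with 21, 18 and 2 cells within 10 percentage points of an even split. The genes of the rule other than Pclaf are highest late in the cycle. A cell in S phase with few marker UMIs falls outside the rule, and the shares describe the cells chosen rather than the length of a phase.

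**Figure D2:**
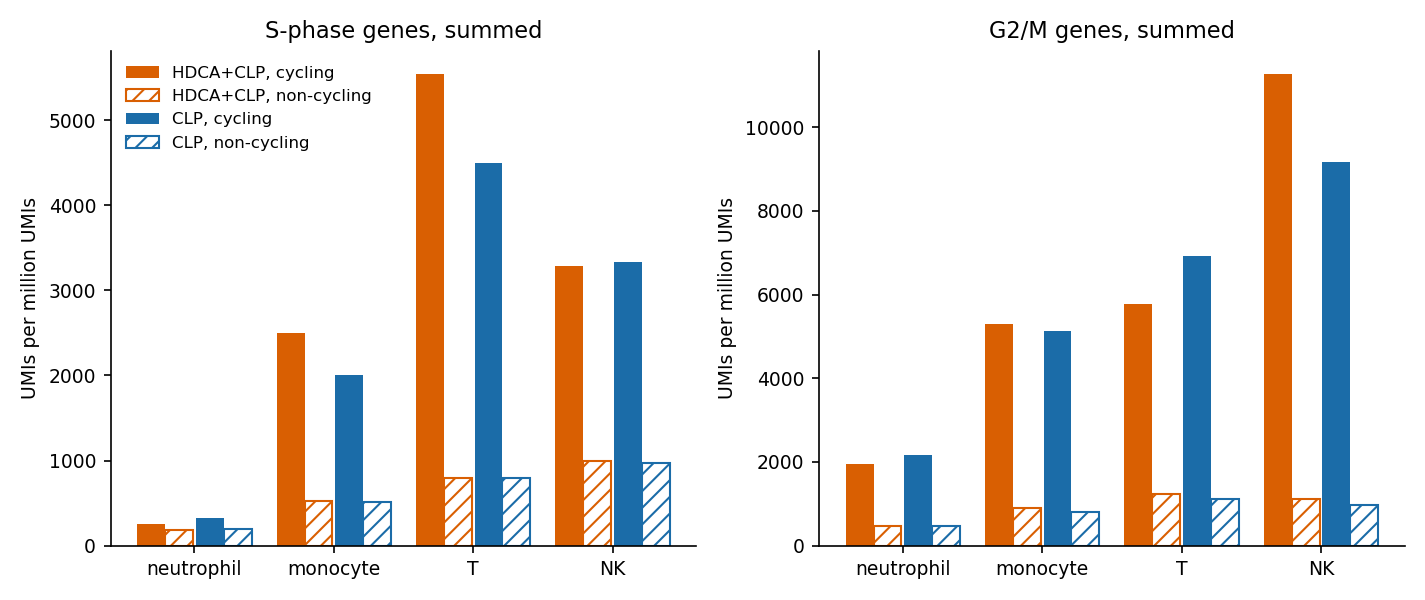
Bars of summed S phase (left) and G2/M (right) transcript levels in CPM for cycling (filled) and non-cycling (hatched) cells of each lineage in the HDCA+CLP and CLP libraries. Cycling neutrophils stand at 252 and 322 CPM for S phase and at 1960 and 2173 CPM for G2/M; the other cycling lineages lie between 2002 and 5540 CPM for S phase.

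The helicase genes showed the same contrast cell by cell. Any UMI of Mcm2 to Mcm7 was found in 13 of 83 cycling neutrophils of HDCA+CLP (15.7%) and 8 of 24 of CLP (33.3%), against 5.08% and 6.39% of non-cycling neutrophils. It was found in 70.1% and 78.2% of cycling monocytes against 38.4% and 36.5% of non-cycling ones, in 75% and 80% of cycling NK cells against 49.1% and 43.7%, and in 89.8% and 97.0% of cycling T cells against 44.8% and 47.4%. Non-cycling neutrophils were thus already below the other non-cycling lineages, and the share was higher in the cycling cells of each lineage. Thinned to 5000 UMIs, the shares in cycling cells were 10.1% and 13% for neutrophils, 53.7% and 50% for monocytes, 73.1% and 76.1% for NK cells and 83.3% and 87.7% for T cells. In non-cycling cells they were 3.15% and 3.77% for neutrophils, 21.7% and 17.1% for monocytes, 47.2% and 42.0% for NK cells and 45.6% and 46.2% for T cells. Neutrophils lay below the other lineages at matched depth in both libraries and both states. Mcm3, whose promoter above carries E2F letters and no CHR, had 3.84 CPM in the cycling neutrophils of HDCA+CLP, 3 UMIs in 2 cells and 0 without called doublets, and 0 UMIs in those of CLP. Its level was 122 and 91.6 CPM in cycling monocytes, 172 and 128 CPM in cycling T cells and 114 and 114 CPM in cycling NK cells. Rrm2, the regulatory subunit of ribonucleotide reductase, had 1 and 0 UMIs in cycling neutrophils, and stood at 102 and 52.9 CPM in cycling monocytes and 183 and 149 CPM in cycling T cells. Pcna, the replication clamp, stood at 8.95 and 10.5 CPM in cycling neutrophils and at 240 and 190 CPM in cycling T cells.

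Most late cycle genes had lower CPM in cycling neutrophils than in the other cycling lineages, though not evenly. CPM is a share of all UMIs, and the 8 neutrophil markers alone took 397406 and 409795 CPM in cycling neutrophils. In cycling monocytes these markers stood at 12703 and 11244 CPM. The share of all genes lower in neutrophils was not computed, so whether the counts below exceed it was not tested. Of 79 G2/M genes, 76 were lower than in cycling monocytes in HDCA+CLP, 62 of them with an interval below 0, and 76 in CLP, 35 of them so. The other 3 were Hjurp, Cdc25b and Ckap2 in HDCA+CLP and Hjurp, Hmmr and Cit in CLP, named after their values were seen, with an interval above 0 for Hjurp in both libraries and Cdc25b in HDCA+CLP. Ccnb2 and Cdkn3, which are outside that list and were also chosen after their values were seen, were not lower than in cycling monocytes either. Ccnb2, with CHR and CCAAT letters in its promoter, stood at 221 CPM in cycling neutrophils of HDCA+CLP and 203 CPM in those of CLP, against 2.72 and 1.62 CPM in non-cycling neutrophils. Its level in cycling monocytes was 174 and 201 CPM, in cycling T cells 261 and 173 CPM and in cycling NK cells 330 and 245 CPM. Cdkn3 stood at 147 and 217 CPM in cycling neutrophils and 110 and 162 CPM in cycling monocytes. The log2 ratio of cycling neutrophils over cycling monocytes for Ccnb2 was 0.35 in HDCA+CLP (interval 0.06 to 0.64) and 0.01 in CLP (-0.40 to 0.40). Nusap1, a spindle assembly protein, had 3 and 0 UMIs in cycling neutrophils, and Aurkb, the kinase of the chromosomal passenger complex, had 1 and 0, so part of the mitotic set was near 0 there as well.

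**Figure D3:**
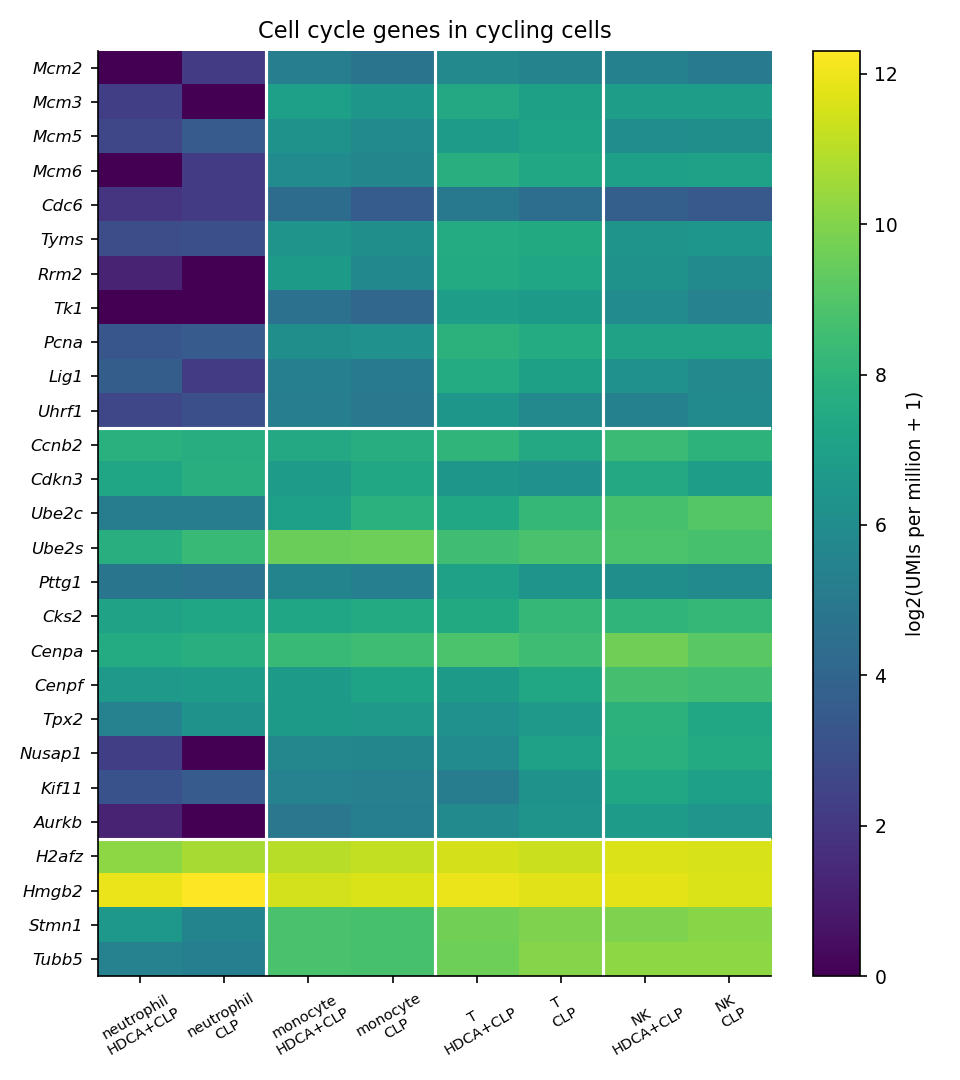
Heat map of log2(CPM + 1) of cell cycle genes (rows, with replication genes at the top, late cycle genes below and chromatin and tubulin genes at the bottom) in the cycling cells of each lineage in the HDCA+CLP and CLP libraries. Mcm3 is at 3.84 CPM and 0 in neutrophils and between 91.6 and 172 CPM in the other lineages, whereas Ccnb2 lies between 173 and 330 CPM in every lineage.

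Cycling neutrophils were next set against non-cycling neutrophils of their own library. Since the cells were chosen on late cycle genes, the higher mitotic lists follow from the choice and are given as description. A gene entered a list count with at least 20 UMIs over both sides, and a difference of at least 2-fold is counted. Of all genes so measured, 14.9% were at least 2-fold higher and 20.9% at least 2-fold lower in cycling neutrophils of HDCA+CLP, and 14.3% and 30.5% in those of CLP. Of the kinesin and spindle genes, 15 of 16 measured in HDCA+CLP and 9 of 10 in CLP were at least 2-fold higher. Tpx2, a spindle assembly factor, stood at 43.5 and 77.1 CPM against 0.191 and 0.463 CPM in non-cycling neutrophils, and Racgap1, needed for cytokinesis, at 34.5 and 56.1 CPM against 0.327 and 0.394 CPM. Of the centromere and kinetochore genes, 12 of 13 and 8 of 10 were higher, among them Cenpa, the centromeric histone, at 187 and 217 CPM against 6.60 and 8.73 CPM. Of the origin licensing genes, 5 of 13 were higher in HDCA+CLP and 6 of 13 in CLP. Of the replication fork genes, 8 of 20 were higher and 7 lower in HDCA+CLP, and 8 of 19 and 7 in CLP, where 5 of the lower genes in each library had no UMI in the cycling cells.

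Chromatin proteins of dividing cells were higher as a group, at least 2-fold in 15 of 18 genes in HDCA+CLP and 14 of 18 in CLP. Hmgb2, a chromatin protein of dividing cells, stood at 3928 and 5058 CPM against 1037 and 1292 CPM in non-cycling neutrophils. H2afz, a histone variant, stood at 1170 and 1630 CPM against 269.8 and 333 CPM. Cdkn1b, the CDK inhibitor p27, was lower, at 46.0 and 31.5 CPM against 108 and 84.1 CPM. The list of CDK inhibitors and antiproliferative genes as a whole had 1 gene of 9 higher and 2 lower in HDCA+CLP, and 2 and 1 of 9 in CLP.

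Late maturation genes were lower in the cycling neutrophils. Of 15 late maturation genes, 9 in HDCA+CLP and 7 in CLP were at least 2-fold lower in the cycling cells, with medians of -1.19 and -0.71 on the log2 scale against -0.02 and -0.23 over all genes measured. Retnlg, a late neutrophil gene, stood at 3354 and 2741 CPM against 13304 and 13419 CPM (log2 ratio -1.99 and -2.29). Mmp8, a collagenase of the specific granules, stood at 1050 and 834 CPM against 1906 and 2089 CPM, and Csf3r, the receptor for G-CSF, at 85.7 and 91.1 CPM against 196 and 149 CPM. Late markers were thus present in the cycling neutrophils at a lower level.

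The specific granule genes were high in both states. Of 14 such genes, 1 was at least 2-fold higher in HDCA+CLP and 3 in CLP, and none was 2-fold lower. Camp, the cathelicidin precursor, stood at 17548 and 25063 CPM against 10746 and 12368 CPM (log2 ratio 0.71 and 1.02), and Ngp, another specific granule protein, at 37696 and 34888 CPM against 29825 and 29506 CPM. Fcnb, a ficolin of immature neutrophils, stood at 75.4 and 87.6 CPM against 37.4 and 32.7 CPM. Ms4a3, a gene of granulocyte and monocyte precursors, stood at 49.9 and 42.1 CPM against 3.11 and 1.95 CPM, with UMIs in 24 of 83 and 7 of 24 cells. Proteases of the primary granules, which promyelocytes make, were mostly near 0, with 1 and 0 UMIs of Elane and no UMI of Mpo or Ctsg in the cycling neutrophils. Prtn3 had 20 and 2 UMIs, at 25.6 and 7.01 CPM against 14.5 and 7.99 CPM in non-cycling neutrophils. Over the list of 10 azurophil granule genes, 8 and 7 were detected at a summed 2139 and 2236 CPM against 2811 and 2615 CPM, and 2 and 1 of 7 measured genes were at least 2-fold higher. The neutrophil and monocyte mixtures above, which carried more Prtn3, are not among these cells.

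Interferon-induced genes were lower in cycling neutrophils. Of the type I interferon response genes, 15 of 30 in HDCA+CLP and 12 of 29 in CLP were at least 2-fold lower. In both libraries 0 were 2-fold higher, and the medians were -0.97 and -0.86. By the same filter, 20.9% and 30.5% of all genes were 2-fold lower, with medians of -0.02 and -0.23. The filter adds both sides, so low genes enter mainly through the more numerous non-cycling cells. Of the list, 3 and 1 genes had no UMI in the cycling cells. Its summed level was 7390 and 5020 CPM against 8927 and 6634 CPM. Ifit3, a gene of this list, stood at 7.67 and 3.51 CPM against 60.8 and 40.3 CPM. Isg15, a ubiquitin-like modifier, stood at 193 and 147 CPM against 412 and 254 CPM, and Ifitm1, a membrane protein that restricts virus entry, at 481 and 217 CPM against 1689 and 1326 CPM. The 20 interferon-gamma response genes stood at a summed 547 and 712 CPM against 918 and 1106 CPM, with 15 and 12 of them detected in the cycling cells. No count is given for that list, since some genes entered only through the far larger number of non-cycling cells. All 16 glucocorticoid response genes were measured, and 5 in HDCA+CLP and 7 in CLP were 2-fold lower. Of these 16 genes, 2 and 3 had no UMI in the cycling cells and entered only through the non-cycling cells. Of 17 glycolysis genes, 1 in each library was 2-fold lower. The shares over all genes were 20.9% and 30.5%.

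A few values in cycling neutrophils rested on single cells. Gzma, the granzyme of NK and T cells, stood at 226 CPM in HDCA+CLP, but 139 of its 177 UMIs (78.5%) came from 1 of 83 cells, and without called doublets it was 4.20 CPM. Il1b, the precursor of interleukin-1β, stood at 382 CPM in CLP with UMIs in 2 of 24 cells, and no UMI was left without called doublets. In HDCA+CLP it stood at 12.8 CPM against 304 CPM in non-cycling neutrophils.

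**Figure D4:**
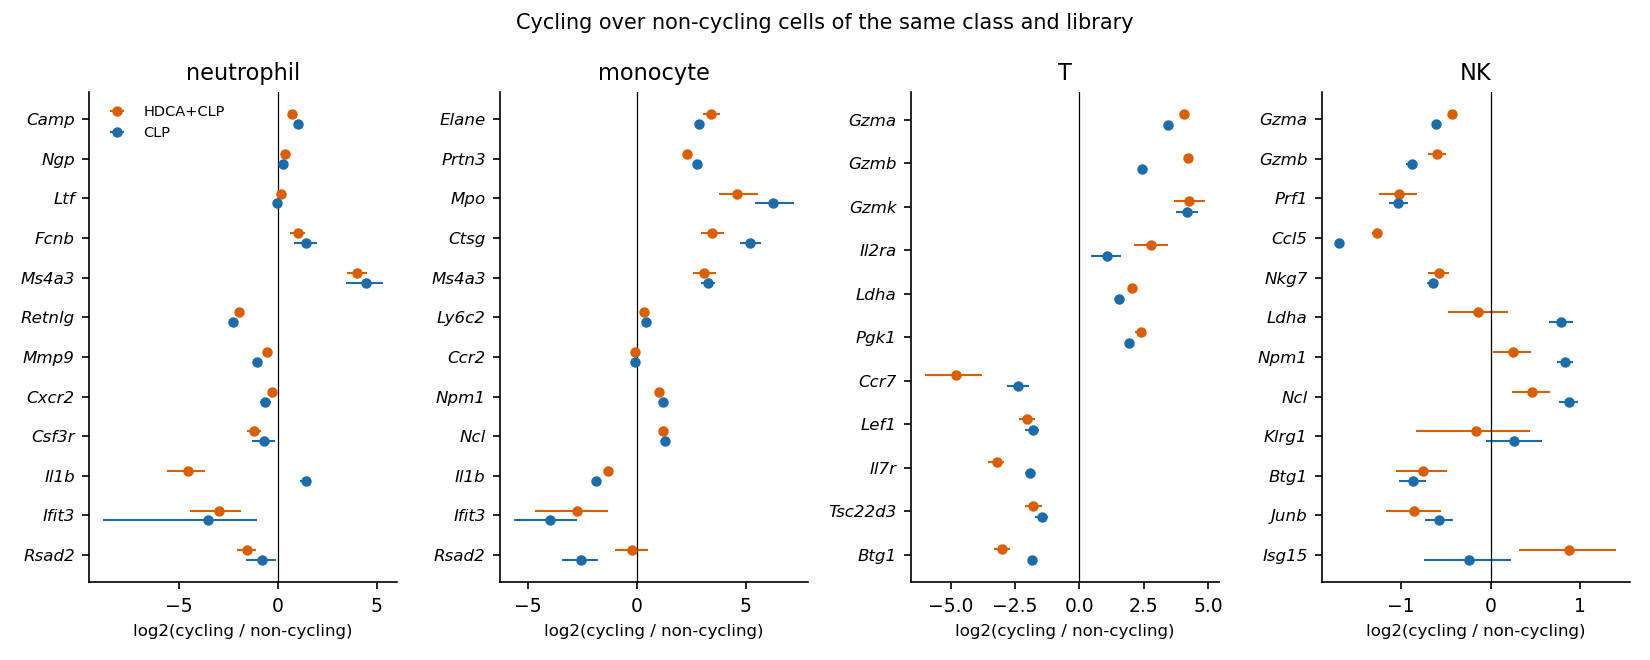
Log2 ratio of cycling over non-cycling cells of the same lineage and library for named genes of lineage state, with counting intervals, in HDCA+CLP and CLP. Retnlg is lower in cycling neutrophils (-1.99 and -2.29), Elane higher in cycling monocytes (3.41 and 2.88), and Il1b in neutrophils points in opposite directions, resting on 2 cells in CLP.

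Cycling monocytes carried transcripts of primary granule proteases, which granulocyte and monocyte precursors make in the marrow. Elane, neutrophil elastase, stood at 272 CPM in cycling monocytes of HDCA+CLP and 221 CPM in those of CLP, against 25.6 and 30.01 CPM in non-cycling monocytes. Prtn3, proteinase 3, stood at 620 and 574 CPM against 124 and 85.0 CPM. Both proteases were several-fold higher in the cycling cells of each library. Ctsg, cathepsin G, stood at 160 and 187 CPM against 14.4 and 5.07 CPM. Mpo, myeloperoxidase, stood at 127 and 126 CPM against 5.20 and 1.64 CPM, with UMIs in 13 of 67 and 37 of 170 cells, and 49.4% and 18.5% of them in a single cell. At least 3 UMIs of these 4 genes were found in 40 of 67 cycling monocytes of HDCA+CLP (59.7%) and 110 of 170 of CLP (64.7%), against 32 of 216 (14.8%) and 67 of 553 (12.1%) of non-cycling monocytes. Thinned to 5000 UMIs, the shares were 34.3% and 35.3% against 8.47% and 3.98%.

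Over the list, 6 of 8 azurophil granule genes measured in HDCA+CLP and 7 of 9 in CLP were at least 2-fold higher in cycling monocytes. Among all genes 7.58% were 2-fold higher and 6.83% lower in HDCA+CLP, and 8.48% and 7.67% in CLP. Srgn and Calr, the proteoglycan and chaperone of granule loading, were lower, at log2 ratios of -0.61 and -0.68 in HDCA+CLP and -0.69 and -0.78 in CLP. Because these 2 genes are abundant, the summed level of the list was 3223 and 3109 CPM in cycling against 2973 and 2984 CPM in non-cycling monocytes. Ms4a3 stood at 140 and 145 CPM against 16.4 and 15.1 CPM, and Serpinb1a, an inhibitor of these proteases, at 106 and 121 CPM against 22.0 and 21.4 CPM. Stem cell genes were scarce, with Cd34 at 2.29 and 9.18 CPM and Kit at 0 and 4 UMIs. The 8 neutrophil markers stood at a summed 12703 and 11244 CPM, against 9600 and 6502 CPM in non-cycling monocytes. Of 11 neutrophil precursor genes, 6 in each library were at least 2-fold higher and 0 lower. Their summed level was 11421 and 9960 CPM against 11734 and 10184 CPM. Whether these cells include granulocyte precursors or neutrophil transcripts from other cells was not tested.

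Markers of classical monocytes were present in the cycling monocytes at about the non-cycling level, and those of non-classical monocytes were low. Ly6c2, the marker of classical monocytes, stood at 3433 and 2941 CPM against 2757 and 2164 CPM, and Ccr2, their chemokine receptor, at 301 and 345 CPM against 321 and 363 CPM. Of the 8 monocyte markers, which include genes of the rule, 7 and 8 were measured, 3 in each library were 2-fold lower and none higher, with medians of -0.27 and -0.60. Of the non-classical genes, Ace was at 0 UMIs in both libraries and Treml4 stood at 3.82 and 2.16 CPM against 47.6 and 42.8 CPM. Csf1r, the receptor for M-CSF and a gene of the monocyte rule, stood at 126 and 104 CPM against 270 and 253 CPM. H2-Ab1, an MHC class II gene, was detected in 7 of 67 and 47 of 170 cycling monocytes, against 54 of 216 and 232 of 553 non-cycling ones. Ribosome biogenesis genes were higher, with Npm1, a nucleolar chaperone, at 1092 and 1239 CPM against 535 and 546 CPM and Ncl, nucleolin, at 1026 and 1029 CPM against 449 and 417 CPM. Of 18 MYC and ribosome biogenesis genes, 6 and 7 were 2-fold higher and 0 lower. Type I interferon response genes were 2-fold lower in 8 of 29 and 13 of 30, and Il1b stood at 241 and 105 CPM against 603 and 384 CPM.

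Cycling monocytes had higher levels of both replication and mitotic lists. At least 2-fold higher were 13 of 14 origin licensing genes in HDCA+CLP and 16 of 18 in CLP, 19 of 24 and 21 of 26 replication fork genes, 10 of 10 and 11 of 11 nucleotide synthesis genes, and 20 of 20 and 22 of 22 kinesin and spindle genes. The same lists in neutrophils had 5 of 13, 8 of 20, 4 of 6 and 15 of 16 in HDCA+CLP. For Mcm3, the log2 ratio of cycling neutrophils over cycling monocytes was -5.00 in HDCA+CLP (interval -7.29 to -3.42), on 3 UMIs in neutrophils. The difference was not tested beyond counting error.

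Most cycling T cells in the libraries with CLP held granzyme UMIs. Any granzyme UMI was found in 44 of 49 cells of HDCA+CLP (89.8%), 54 of 67 of CLP (80.6%) and 5 of 15 of Sham (33.3%), against 12.6%, 32.1% and 2.49% of non-cycling T cells. Thinned to 5000 UMIs, the shares were 87.5%, 70.8% and 28.6% against 27.0%, 33.6% and 1.79%. In cycling monocytes, which should lack granzymes and were deeper, the share was 2.99% in HDCA+CLP and 24.1% in CLP, and 0 of 67 (exact interval up to 5.36%) and 13 of 170 (7.65%) when thinned to 5000 UMIs. Granzyme UMIs were thus also found in cells of another class, more often in CLP, and their source there was not tested. Gzma stood at 2438, 2152 and 3185 CPM in cycling T cells of HDCA+CLP, CLP and Sham, against 147, 195 and 19.5 CPM. Gzmb, granzyme B, stood at 2583, 1683 and 120 CPM against 137, 308 and 2.51 CPM. Gzmk, of effector memory CD8 cells, stood at 120, 103 and 69.9 CPM against 6.25, 5.67 and 1.79 CPM. Of the 7 NK cell markers, a list that includes Gzma and Gzmb, the summed level was 5092 and 3912 CPM in cycling T cells of HDCA+CLP and CLP against 315 and 549 CPM, with 3 of 4 and 3 of 5 measured genes at least 2-fold higher. The NK receptor genes Ncr1 and Klrb1c, which are used by the NK rule, had 0 and 1 UMIs in HDCA+CLP and 0 and 8 in CLP. Granzyme B was thus high in the cycling T cells of both CLP libraries and much lower in those of Sham.

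Genes of naive T cells ran the other way. Ccr7, a chemokine receptor for lymph node entry, stood at 11.2, 46.8 and 160 CPM in cycling T cells of HDCA+CLP, CLP and Sham, against 305, 243 and 393 CPM in non-cycling T cells, on 8, 47 and 32 UMIs in the cycling cells. It was lower in the cycling T cells of each library. Of 13 naive T cell genes, 11 in HDCA+CLP and 10 in CLP were at least 2-fold lower, with medians of -2.56 and -1.91 on the log2 scale against 0.07 and 0.16 over all genes. Of all genes, 20.5% were 2-fold higher and 18.3% lower in cycling T cells of HDCA+CLP, and 19.4% and 14.3% in those of CLP. Il7r, the receptor for interleukin-7, stood at 124 and 259 CPM against 1154 and 976 CPM, and Tcf7, a transcription factor of naive and memory cells, at 75.4 and 136 CPM against 444 and 449 CPM. The 10 of 14 and 10 of 17 cytotoxic effector genes that were 2-fold higher included the granzymes above.

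Metabolic genes were higher in cycling T cells. Of 16 glycolysis genes measured, 12 in HDCA+CLP and 11 in CLP were at least 2-fold higher. Ldha, lactate dehydrogenase, stood at 1003 and 685 CPM against 244 and 237 CPM, and Pkm, pyruvate kinase, at 781 and 612 CPM against 157 and 181 CPM. Txnip, which limits glucose uptake, stood at 117 and 382 CPM against 1385 and 1538 CPM. Glycolysis genes in cycling monocytes, by comparison, had 1 of 17 higher in HDCA+CLP and 0 of 17 in CLP. Glucocorticoid response genes were 2-fold lower in 9 of 15 and 10 of 16 in cycling T cells, among them Tsc22d3, the leucine zipper protein GILZ, at 119 and 142 CPM against 407 and 393 CPM.

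Activation and inhibitory receptors were higher in part, in 9 of 17 and 8 of 17 genes. Lag3 stood at 48.8 and 47.8 CPM against 5.52 and 5.52 CPM, Pdcd1, encoding PD-1, at 37.7 and 33.9 CPM against 6.62 and 8.39 CPM, and Havcr2, encoding TIM-3, at 33.5 and 17.9 CPM against 1.29 and 0.574 CPM. Il2ra, the high-affinity interleukin-2 receptor chain, stood at 55.8 and 30.9 CPM against 8.09 and 14.8 CPM. These receptors were low but above the non-cycling level in both libraries.

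Cd4 and CD8 UMIs, of helper and cytotoxic T cells, were each found in cycling T cells. CD8 UMIs without Cd4 were found in 19 of 49 cycling T cells of HDCA+CLP, 24 of 67 of CLP and 8 of 15 of Sham, and Cd4 UMIs without CD8 in 22, 21 and 6. Neither was found in 4, 20 and 0 cells, and Trdc, of γδ T cells, in 0, 4 and 0. In cycling monocytes, a background for such UMIs, Cd4 was found in 1 of 67 cells of HDCA+CLP and 0 of 170 of CLP, and CD8 in 0 and 1. Foxp3, the factor of regulatory T cells, was detected in 1, 1 and 2 cells. Thinned to 5000 UMIs, Cd4 without CD8 was found in 35.4%, 18.5% and 35.7% of cycling T cells of HDCA+CLP, CLP and Sham, against 9.61%, 11.3% and 34.4% of non-cycling ones, and neither was found in 29.2%, 44.6% and 7.14% of the cycling cells. CD8 without Cd4 was then found in 35.4%, 36.9% and 50% of cycling T cells, against 75.8%, 55.5% and 31.8% of non-cycling ones. At 5000 UMIs that share was thus lower in cycling T cells of HDCA+CLP and CLP and higher in those of Sham. The Sham value rests on 7 of 14 cells, and its exact interval includes the non-cycling share. Cells shallower than 5000 UMIs were left out, which in non-cycling T cells were most of the class in HDCA+CLP and CLP. Without thinning, the share was 38.8%, 35.8% and 53.3% in cycling T cells of HDCA+CLP, CLP and Sham. The non-cycling shares were then 34.95%, 35.4% and 29.3%, so the lower share in HDCA+CLP and CLP was seen only after thinning.

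The 15 cycling T cells of Sham differed widely in depth and in marker content. The deepest had 30614 UMIs with 33 of Mki67, 36 of Top2a, 39 of Birc5, 11 of Cdk1 and 26 of Pclaf, and 616 UMIs of the G2/M list. The shallowest had 4581 UMIs with 2 of Mki67 and 1 of Top2a. The next 2 by depth from the top, with 24297 and 17064 UMIs, held 484 and 53 G2/M UMIs. The G2/M share of 75.8% in Sham T cells therefore rests largely on the pair with 616 and 484 UMIs among 1699.

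Cycling NK cells had less, not more, of the cytotoxic transcripts than their non-cycling counterparts. Gzma stood at 19047 CPM in HDCA+CLP and 17021 CPM in CLP, against 25595 and 25883 CPM, and Gzmb at 3685 and 2876 CPM against 5568 and 5303 CPM. Prf1, perforin, stood at 787 and 842 CPM against 1602 and 1720 CPM, and Ccl5, a chemokine, at 15716 and 11294 CPM against 38005 and 36603 CPM. All 4 were lower in cycling NK cells of each library. Of the 15 cytotoxic effector genes measured in HDCA+CLP, 2 were 2-fold higher and 4 lower, and of 16 in CLP, 3 and 4. Of all genes, 9.18% were 2-fold higher and 10.4% lower in HDCA+CLP, and 8.49% and 6.04% in CLP. Il2rb, the shared chain of the interleukin-2 and interleukin-15 receptors, stood at 420 and 527 CPM against 993 and 1014 CPM. Xcl1, a chemokine for dendritic cells, was higher, at 97.8 and 114 CPM against 12.8 and 48.5 CPM.

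For origin licensing and replication fork genes, the shares at least 2-fold higher in cycling NK cells lay between those of neutrophils and those of monocytes. The G2/M share of cycling NK cells, 77.4% and 73.3%, also lay between those of these 2 lineages. At least 2-fold higher in NK cells were 9 of 12 and 12 of 14 origin licensing genes and 15 of 21 and 18 of 25 replication fork genes. Of the kinesin and spindle genes, 17 of 17 and 23 of 23 were. Monocytes had 13 of 14 and 16 of 18 origin licensing genes and 19 of 24 and 21 of 26 replication fork genes higher. In T cells the licensing, fork and kinesin lists had 17 of 17 and 18 of 18, 23 of 25 and 22 of 25, and 19 of 19 and 23 of 23. Of the state lists that stood apart in T cells, naive genes were 2-fold lower in 0 of 9 and 0 of 9 in NK cells, glycolysis genes 2-fold higher in 0 of 14 and 0 of 15, and glucocorticoid response genes 2-fold lower in 1 of 15 and 1 of 15.

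Differences between the HDCA+CLP and CLP libraries within cycling cells were described gene by gene where each library had at least 50 cycling cells, which left the monocytes. Of 8662 genes measured, 2.4% were at least 2-fold higher in HDCA+CLP and 2.56% at least 2-fold lower, with a median over all genes of 0.05 on the log2 scale. Named here are 10 genes higher and 9 lower in HDCA+CLP, ranked by the interval bound nearest to 0. On the higher side 5 of these were histone genes. Hist1h1b, a linker histone made in S phase, stood at 642 CPM in HDCA+CLP and 191 CPM in CLP (log2 ratio 1.75, interval 1.60 to 1.89), with UMIs in 24 of 67 and 59 of 170 cells. Hist1h4d stood at 145 and 39.2 CPM (1.88), Hist1h2ab at 62.7 and 17.6 CPM (1.84), Hist1h1d at 55.1 and 16.5 CPM (1.74) and Hist1h4h at 67.3 and 20.5 CPM (1.71). In each of the 5, at least 16.4% of the HDCA+CLP UMIs came from a single cell. In non-cycling monocytes the ratio was below 0 for Hist1h1b (-0.57), Hist1h2ab (-0.45) and Hist1h1d (-0.11), and above 0 for the other two.

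The other genes higher in HDCA+CLP belong to myeloid activation and survival. Ptx3, a soluble pattern recognition protein, stood at 333 CPM in HDCA+CLP and 45.1 CPM in CLP (log2 ratio 2.89, interval 2.63 to 3.15), with UMIs in 14 of 67 and 36 of 170 cells, and 40.4% of the HDCA+CLP UMIs in a single cell. Acod1, the enzyme that makes itaconate, stood at 277 and 40.0 CPM (2.79), and at 252 and 153 CPM in non-cycling monocytes. Bcl2a1b and Bcl2a1d, near-identical antiapoptotic genes whose reads may be split uncertainly, stood at 219 and 53.2 CPM (2.04) and 109 and 30.3 CPM (1.85). Ccl4, a chemokine, stood at 454 and 119 CPM (1.93), with 54.6% and 42.4% of UMIs in a single cell, and its ratio in non-cycling monocytes was -1.71. Few cells thus carried a large part of several of these values.

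Among the genes lower in HDCA+CLP, Ccl2, the chemokine that draws monocytes, stood at 190 CPM in HDCA+CLP and 825 CPM in CLP (log2 ratio -2.12, interval -2.31 to -1.93). It had UMIs in 35 of 67 and 120 of 170 cells, 31.7% of the CLP UMIs came from a single cell, and its ratio in non-cycling monocytes was -0.68. Spp1, osteopontin, stood at 135 and 478 CPM (-1.82; -1.34 in non-cycling monocytes), and Iigp1, an interferon-induced GTPase, at 15.3 and 74.3 CPM (-2.28; -0.85 in non-cycling monocytes). Timp1, a metalloproteinase inhibitor, stood at 13.8 and 53.2 CPM (-1.95), Dmkn at 71.1 and 188 CPM (-1.40) and Adam8, a membrane protease, at 32.9 and 85.3 CPM (-1.38). Fdps, an enzyme of isoprenoid synthesis, stood at 36.7 and 86.2 CPM (-1.23), Mt1, a metallothionein, at 342 and 619 CPM (-0.86), and AY036118 at 181 and 353 CPM (-0.96). In non-cycling monocytes 8 of these 9 genes also had ratios below 0, the lowest at -1.35 for AY036118, and Fdps, at -0.95, was the 1 gene whose non-cycling ratio lay within its interval in cycling cells. The direction for Mt1 was the opposite there, at 0.28.

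**Figure D5:**
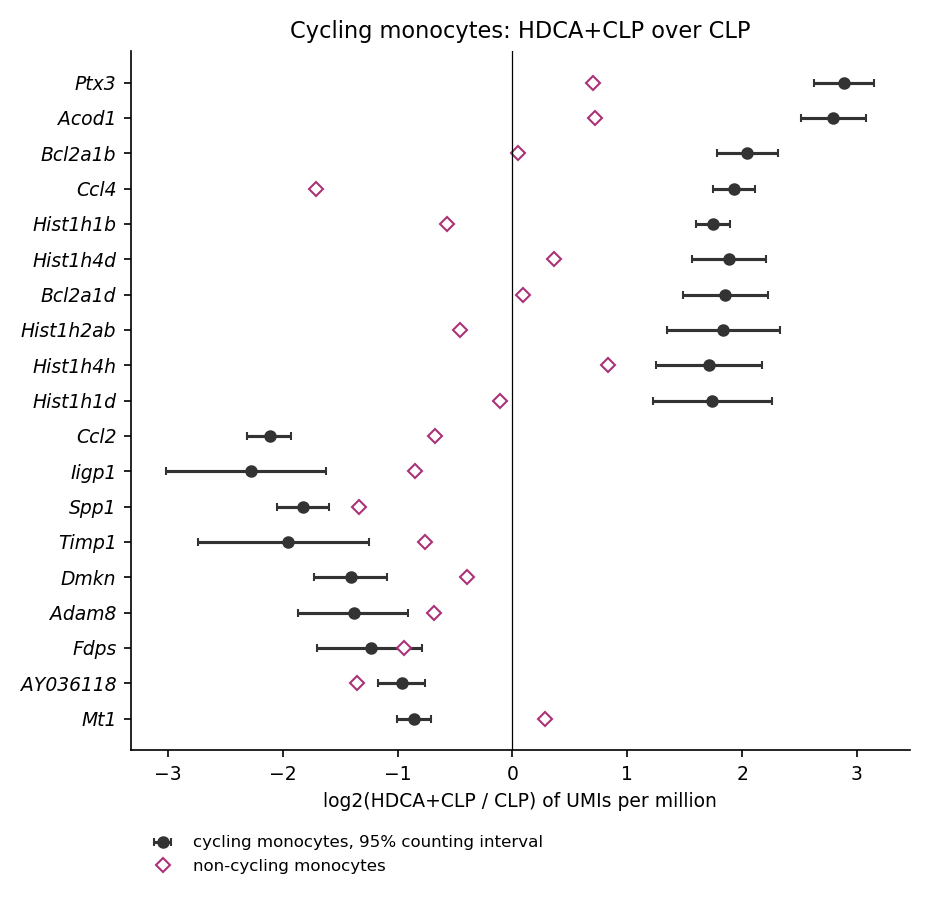
Log2 ratio of HDCA+CLP over CLP in cycling monocytes (67 and 170 cells) and in non-cycling monocytes for the 19 named genes, with 95% counting intervals for the cycling cells. Ptx3, Acod1 and the histone genes lie above 0 in cycling cells, Ccl2, Iigp1 and Spp1 below 0, and Ccl4, Hist1h1b, Hist1h2ab, Hist1h1d and Mt1 point in opposite directions in cycling and non-cycling cells.

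Gene lists in cycling monocytes leaned as follows, counted by direction alone, by which 55.1% of all genes measured were higher in HDCA+CLP and 44.9% lower. Origin licensing genes were higher in HDCA+CLP in 17 of 19 (median log2 ratio 0.42), none of them 2-fold, with Mcm3 at 122 CPM in HDCA+CLP and 91.6 CPM in CLP, and replication fork genes in 20 of 26 (0.29), 2 of them 2-fold. Interferon-gamma response genes were lower in 14 of 18 (-0.41), 4 of them 2-fold, with Irgm1 at 35.2 and 72.7 CPM and Gbp2 at 35.2 and 55.4 CPM, while the chemokine Cxcl10 was higher at 164 and 85.9 CPM. The type I interferon list had 18 of 27 genes higher (0.23), 4 of them 2-fold, with Isg15 at 216 and 113 CPM. Late neutrophil maturation genes were higher in 12 of 14 (0.45), 5 of them 2-fold, and p53 and DNA damage genes in 12 of 14 (0.34), 2 of them 2-fold. Camp and Ngp, which monocytes are not known to make in quantity, stood at 55.8 and 27.5 CPM and at 154 and 66.7 CPM, beside neutrophil shares of 74.0% and 45.7% of the libraries. The part of neutrophil transcripts from other cells in these list values was not tested.

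Cycling T and NK cells were compared in the same way with 49 and 67 and with 28 and 75 cells, a comparison added after the data were seen. In T cells, 2.59% of genes measured were at least 2-fold higher in HDCA+CLP and 3.61% lower, with a median of 0.03, and 53.4% were higher and 46.6% lower by any amount. Type I interferon response genes were lower in HDCA+CLP in 25 of 26 (median -0.44), 4 of them 2-fold, with Ifit3 at 9.77 CPM in HDCA+CLP and 52.8 CPM in CLP. Replication fork genes were higher in 25 of 26 (0.44), 1 of them 2-fold, and nucleotide synthesis genes in 9 of 9 (0.32), none 2-fold, whereas mitotic kinase and checkpoint genes were lower in 12 of 13 (-0.54), 2 of them 2-fold. Ccl5 stood at 815 and 2132 CPM, Il7r at 124 and 259 CPM and Txnip at 117 and 382 CPM, each lower in HDCA+CLP.

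In NK cells 5.25% of genes were at least 2-fold higher and 5.41% lower, with a median of 0.09, and 56.9% were higher and 43.1% lower by any amount. The type I interferon list had 16 of 16 measured genes higher in HDCA+CLP (median 0.71), 6 of them 2-fold, the direction opposite to T cells. Its summed level was 2067 CPM in HDCA+CLP and 1079 CPM in CLP. Neutrophil transcripts moved with it in the same cells, with the 8 neutrophil markers at a summed 3225 and 1628 CPM and late neutrophil maturation genes higher in 5 of 6 (1.27), 4 of them 2-fold. Their part in the interferon values was not tested. Isg15 stood at 147 CPM in HDCA+CLP and 46.0 CPM in CLP, and Mx1, a GTPase that restricts viruses, at 57.1 and 13.1 CPM. Kinesin and spindle genes were higher in 21 of 23 (0.45), 1 of them 2-fold, and centromere and kinetochore genes in 18 of 19 (0.38), none 2-fold. MYC and ribosome biogenesis genes were lower in 14 of 15 (-0.59), 3 of them 2-fold, with Npm1 at 840 and 1362 CPM. The difference between the 2 lineages in the interferon list was not tested, and the NK values come from 28 cells in HDCA+CLP.

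In cycling neutrophils, with 83 and 24 cells, 7.19% of the genes measured were at least 2-fold higher in HDCA+CLP and 2.14% lower. Camp stood at 17548 CPM in HDCA+CLP and 25063 CPM in CLP (log2 ratio -0.51, interval -0.56 to -0.47), Retnlg at 3354 and 2741 CPM (0.29, 0.18 to 0.41) and Ifitm1 at 481 and 217 CPM (1.15, 0.75 to 1.56). Mki67, Birc5 and Ccnb2 had intervals that include 0, at ratios of 0.20, -0.03 and 0.12. Mki67 and Birc5 are rule genes that chose the cells in both libraries, so their ratios are description alone. No cycling neutrophil was found in Sham, so the CLP library has no counterpart there.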

How the data were processed

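Each of the 3 libraries of mouse blood (HDCA+CLP, CLP and Sham, taken at 12 h) was deposited as a matrix of raw UMI counts (genes by cell barcodes), made by the authors with Cell Ranger 5.0.1 per the file headers, with barcodes already called as cells. The submitters' processing notes also name mm39, Seurat 4.0.6 and R 4.0.3 without a role. Total counts per library ran between 42427093 and 95178381 UMIs. Cells with at least 500 UMIs, 200 genes and at most 10% mitochondrial UMIs were kept. Cycling and lineage rules were applied to raw counts, and no doublet was removed from the reported values. The members and gene lists were chosen with earlier results of these data known.

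Within each lineage and library, the UMIs of all cells were added up and scaled to CPM. Ratios carry exact conditional binomial intervals and shares exact Clopper-Pearson intervals, at 95%, which cover counting error and not the spread between animals. With 1 library per group no test was made. Of 498 list genes, 495 were found in the matrices. The S phase and G2/M lists left out the 5 rule genes. Genes named between libraries were the 10 in each direction whose interval bound lay farthest from 0, among genes with at least 50 UMIs over both libraries and 50 CPM in 1 of them; 1 of the lower genes is not reported here. Genes of the mitochondrial genome, of ribosomal proteins, of globins, of antigen receptors and of the Y chromosome were left out with Xist and predicted genes, as were genes under 20% of their level in the non-cycling lineage highest for them. The other genes named are rule genes and list examples, some chosen after their values were seen.

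Alternatives changed the marker minimum, the depth, the mitochondrial limit, doublet removal, mixed cells, the scaling and the gene filter. Doublets were called at 0.8% per 1000 barcodes from simulated pairs, with 2 simulated per cell. The scripts were tested on simulated data. Python 3.11.15, NumPy 2.4.6, SciPy 1.17.1, pandas 2.3.3, scikit-learn 1.9.0 and matplotlib 3.10.9 were used. Of 31053 features, 30934 matched RefSeq names, and promoters came from RefSeq's GRCm38.p6 table.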

Additional observations from a re-analysis of the deposited data

Results flagged for a closer look

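As a share of all cells of the library, cycling neutrophils were higher in HDCA+CLP than in CLP, at a log2 ratio of 1.64, whereas the other 3 large lineages were lower. Cycling monocytes had -1.49, cycling NK cells -1.57 and cycling T cells -0.60. The lineages thus moved in opposite directions under the same contrast, on 1 library per group, and the difference between lineages was not tested. The lineages' own shares of the library differed as well, with the neutrophil class at 74.0% of HDCA+CLP and 45.7% of CLP.

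Barcodes left out for mitochondrial UMIs above 10% also held marker transcripts. In the CLP library 12 of 542 such barcodes met the cycling rule, against 0 of 166 in HDCA+CLP and 0 of 261 in Sham. They entered no comparison.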

How the results depend on the processing

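No paired analysis was possible because each group was 1 library. The values whose sign turned had intervals including 0 as reported. The log2 ratio of HDCA+CLP over CLP for T cells among cycling cells, 0.08, was -0.14 with at least 2 marker UMIs and -0.19 with mixed cells assigned. At 5000 UMIs per cell, the share within the lineage was -0.06 for monocytes and 0.11 for NK cells, against 0.01 and -0.44. With at least 5 marker UMIs from 3 genes, the log2 ratio of HDCA+CLP over CLP was -0.96 for the cycling share of the library and 0.22 for neutrophils, and the G2/M share was 72.7% in CLP monocytes and 75.2% in CLP NK cells. Cycling over non-cycling log2 ratios were then 0.91 and 1.09 for the S phase and 2.54 and 2.66 for the G2/M list in neutrophils of HDCA+CLP and CLP, 2.31 and 3.00 for the 4 primary granule genes in monocytes, 1.99 and 1.56 for cytotoxic and -2.07 and -1.56 for naive genes in T cells, and -0.90 for cytotoxic genes in HDCA+CLP NK cells. With at least 2 UMIs from 2 genes, the G2/M share was 71.4% in CLP monocytes and 72.0% in CLP NK cells. Thinned to 2000 UMIs, HDCA+CLP over CLP was -0.94 for the library share, 2.15 for the neutrophil share (on 8 and 1 cells), and 3.78 and -0.16 for neutrophils and monocytes among cycling cells. G2/M shares at that depth were 100% in CLP neutrophils and, in HDCA+CLP and CLP, 78.2% and 78.1% in monocytes, 55.1% and 67.7% in T cells and 81.7% and 79.6% in NK cells. At 5000 UMIs per cell, a depth chosen after the data were seen, the T cell share had log2 ratios of 1.79 for HDCA+CLP over CLP and 3.20 for CLP over Sham. G2/M shares there were 91.7% and 91.8% in neutrophils, 79.1% and 77.9% in monocytes, 54.3% and 63.4% in T cells and 79.0% and 78.3% in NK cells. With genes of at least 100 UMIs, 32 genes were 2-fold higher and 25 lower in cycling monocytes, against 208 and 222; fewer genes enter by construction. The cause of the other shifts was not tested. Of 114 values of the 19 named genes, 11 lay outside their counting interval, 6 of them as a mean over cells, where Ccl4 was 1.28 and Ccl2 -1.57. At 2000 UMIs too few cycling neutrophils were left to compare.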
